A study of Mus musculus with 6 samples.

Results

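The 480 strongest UTX sites of wild-type (WT) progenitor CD8 T cells are described here. They were chosen by 1 measured value, the WT concentration in the authors' deposited table, which is the log2 of the mean normalized reads over the WT samples, and were kept at 6.5 or more, a level of 90.5 normalized reads. They make up 480 of the 6739 sites in that table (7.12%) and lie at 449 of the 5221 genes (8.60%) to which a site higher in WT was assigned. Every site higher in WT in that table had a false discovery rate (FDR) under 0.05 for the difference between the genotypes. The other sites set beside the members had thus been selected by the same comparison. The series profiled UTX by CUT&Tag, in which an antibody directs a transposase to cut and tag the DNA around its target, in Ly108+ CXCR6- CD8 T cells sorted from the pancreatic lymph node. The groups were 3 samples from NY8.3 mice with a T cell-specific deletion of UTX and 3 samples from WT NY8.3 mice, and both groups carry the NY8.3 T cell receptor transgene, with the NOD background named for the WT mice. The labels name neither the Cre driver nor the deleted part of the gene, give no age, and do not say whether the samples came from separate animals.

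UTX, encoded by Kdm6a, removes methyl groups from lysine 27 of histone H3, a mark of Polycomb repression, and also acts without this activity. It is a subunit of the MLL3 and MLL4 (KMT2C and KMT2D) complexes, which methylate lysine 4 of histone H3 at enhancers, and it is found at active promoters as well. Ly108+ CXCR6- CD8 T cells are a progenitor state that depends on TCF-1 and gives rise to effector cells, in autoimmune diabetes to those that attack the islets.

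Where a member lay at the start of a gene, the promoter sequence under the strongest UTX signal can be read. Shown are the 250 bases before the start of 5 such genes, from RefSeq (GRCm38.p6): Sf1, a splicing factor gene and the fourth strongest site, Klf2, a quiescence and trafficking factor, Nr4a1, a nuclear receptor gene induced through the T cell receptor, Dusp1, a MAP kinase phosphatase gene, and Cdk4, a cell cycle kinase gene. Dusp1 and Cdk4 were chosen after their values had been seen. Capitals mark matches, on either strand, to the 10 motifs searched: CCGGAAG (ETS), GGGCGG (the GC box of SP and KLF factors), CCAAT (NFY), TGACGTCA (CREB and ATF), its core TGACG, CGCATGCG (NRF1), AAGATGGC (YY1), TGTGGT (RUNX), CTTTGA (TCF and LEF) and CACGTG (E box). The Sf1 window lies on the plus strand at chr19:6363440-6363689, Klf2 on plus at chr8:72318812-72319061, Nr4a1 on plus at chr15:101266596-101266845, Dusp1 on minus at chr17:26508473-26508722 and Cdk4 on plus at chr10:127063285-127063534.
Sf1: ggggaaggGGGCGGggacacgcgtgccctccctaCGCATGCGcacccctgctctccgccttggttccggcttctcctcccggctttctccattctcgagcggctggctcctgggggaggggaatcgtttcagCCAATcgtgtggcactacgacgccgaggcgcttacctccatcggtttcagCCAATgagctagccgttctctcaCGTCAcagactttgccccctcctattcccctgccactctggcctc
Klf2: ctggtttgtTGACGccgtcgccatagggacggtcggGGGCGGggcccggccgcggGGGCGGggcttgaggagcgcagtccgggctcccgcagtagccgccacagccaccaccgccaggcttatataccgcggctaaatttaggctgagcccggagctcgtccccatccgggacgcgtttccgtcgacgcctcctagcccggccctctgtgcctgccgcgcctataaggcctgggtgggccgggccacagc
Nr4a1: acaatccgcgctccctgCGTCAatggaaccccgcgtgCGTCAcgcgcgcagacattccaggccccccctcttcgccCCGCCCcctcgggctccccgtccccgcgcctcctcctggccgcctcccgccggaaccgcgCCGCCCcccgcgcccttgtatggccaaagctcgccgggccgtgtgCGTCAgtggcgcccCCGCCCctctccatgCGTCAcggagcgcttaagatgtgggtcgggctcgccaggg
Dusp1: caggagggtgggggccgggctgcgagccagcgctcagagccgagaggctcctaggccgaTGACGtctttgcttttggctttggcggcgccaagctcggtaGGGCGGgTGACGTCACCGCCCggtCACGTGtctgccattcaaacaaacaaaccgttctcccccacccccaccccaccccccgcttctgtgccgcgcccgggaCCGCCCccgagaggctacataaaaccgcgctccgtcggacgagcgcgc
Cdk4: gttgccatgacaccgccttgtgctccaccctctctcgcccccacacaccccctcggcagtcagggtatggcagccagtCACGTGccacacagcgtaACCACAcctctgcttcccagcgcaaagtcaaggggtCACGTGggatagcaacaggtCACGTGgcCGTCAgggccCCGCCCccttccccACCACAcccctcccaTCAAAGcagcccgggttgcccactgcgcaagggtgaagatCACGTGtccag
The site covered 229 of the 250 bases at Sf1, 245 at Dusp1 and 250 at each of Klf2, Nr4a1 and Cdk4. GC content of these windows ran between 64% at Sf1 and 74.4% at Nr4a1. The Nr4a1 window holds 3 GC boxes and 4 copies of TGACG. The Dusp1 window holds 3 GC boxes, 3 copies of TGACG and 1 full TGACGTCA, and that full site contains 2 of the TGACG copies. The Cdk4 window holds 4 E boxes, which no other window shown has except Dusp1 with 1, and Sf1 alone of the 5 holds CCAAT (2 copies) and the NRF1 motif (1 copy).

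Members also lay at microRNA genes, whose short RNAs repress target messengers through a seed at bases 2 to 8. Mature sequences from RefSeq are shown for the microRNAs nearest to members, with the seed in capitals, since microRNAs with the same seed can act on the same targets.
mmu-miR-23a-3p: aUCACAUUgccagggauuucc
mmu-miR-27a-3p: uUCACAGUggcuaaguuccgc
mmu-miR-24-3p: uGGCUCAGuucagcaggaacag
mmu-miR-181c-5p: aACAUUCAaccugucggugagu
mmu-miR-181d-5p: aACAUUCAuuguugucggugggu
mmu-miR-132-3p: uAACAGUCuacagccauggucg
mmu-miR-212-3p: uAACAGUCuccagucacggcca
mmu-miR-142a-3p: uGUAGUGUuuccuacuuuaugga
mmu-miR-150-3p: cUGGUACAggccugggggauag
mmu-miR-22-3p: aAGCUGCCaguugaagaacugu
The seed ACAUUCA is shared by miR-181c-5p and miR-181d-5p, and AACAGUC by miR-132-3p and miR-212-3p. The 3 microRNAs of the miR-23a cluster have 3 different seeds.

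The table gives 1 level per genotype, and whole reads per library were recovered from it, with libraries listed by depth within a genotype because their sample numbers are unknown. Relative to the mean of all 6 libraries, depth was 1.93, 1.07 and 0.00577 in UTX-deficient libraries, against 1.28, 0.916 and 0.792 in WT libraries. The depth of the third UTX-deficient library was not measured. It is what the other libraries leave when the 6 depths are taken to average 1. The search for the WT depths kept only solutions that left a small remainder, so a near-empty library was assumed by the method. On this assumption the third UTX-deficient library has 0 reads at every member. A single read of it would be worth 173.2 normalized reads, so its 0 says little about any site. It is shown as 0 beside each site and left out where a level is given for 2 UTX-deficient libraries. As a check of the label, Cd3d carried a member, Cd8a, Cd8b1 and Cd3e carried weaker sites, and no site was assigned to Cd3g. None of the marker lists for B cells, myeloid cells, CD4 and regulatory T cells, innate lymphoid cells or pancreatic and stromal cells had a member. Weaker sites were at 5 of 16 genes of the CD4 and regulatory list, 4 of 15 of the natural killer and innate lymphoid list, 2 of 20 of the myeloid list, 1 of 13 of the B cell list and 1 of 20 of the pancreatic and stromal list. Over all genes with a site higher in WT only 8.60% had a member, so the lack of members at so few genes says little about other cell types. The Cd4 site held 0, 2 and 0 reads in UTX-deficient libraries, against 97, 85 and 48 in WT libraries. Its WT concentration of 6.26 in the authors' deposited table was above those of the strongest Cd8b1, Cd8a and Cd3e sites (5.97, 4.95 and 4.66), and the part of other cell types in the signal was not tested. The site at Kdm6a was no member (8, 12 and 0 reads in UTX-deficient libraries, against 65, 48 and 35 in WT libraries).

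All 480 members were lower in UTX-deficient cells, and every UTX-deficient library lay under every WT library at each of them. Members held 2521, 5774 and 0 reads in UTX-deficient libraries, against 80904, 64748 and 47023 in WT libraries. Scaled to depth, the mean per member was 2.71, 11.2 and 0 normalized reads in UTX-deficient libraries, against 132, 147 and 124 in WT libraries. The WT libraries were thus close to each other, and the second UTX-deficient library stood above the deepest at 478 of the 480 members. The same absence of overlap was seen at each of the other 6238 sites higher in WT, where the means were 1.08, 3.16 and 0 in UTX-deficient libraries, against 33.7, 37.4 and 31.2 in WT libraries. These sites, too, all had an FDR under 0.05 in this contrast, so the absence of overlap says little about sites in general. In the authors' deposited table all 480 had an FDR under 0.05, against 81.0% of all tests behind that table called higher in WT, and since the rule read the WT level of this contrast the count is no result. In a bulk library, fewer nuclei and less UTX signal per nucleus cannot be told apart.

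**Figure D1:**
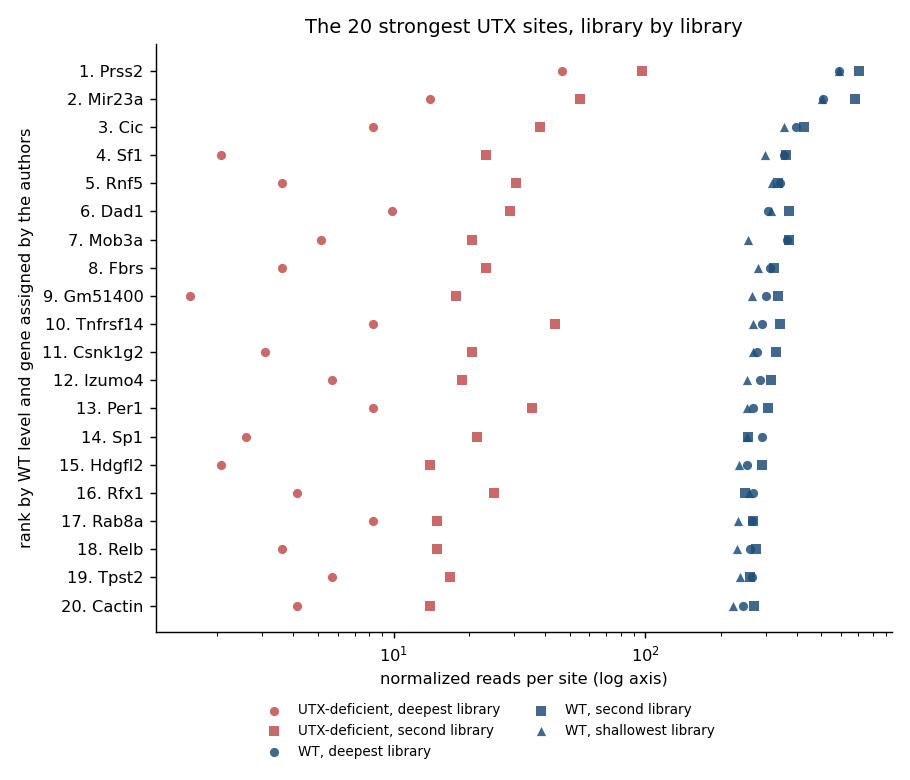
Normalized reads (log axis) at the 20 strongest sites, 1 row a site named by the gene the authors assigned, with 1 point a library; the near-empty UTX-deficient library is at 0 at each site and is not drawn. The UTX-deficient libraries lie left of the WT libraries at every site, and the deepest UTX-deficient library lies left of the second.

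The signal left in UTX-deficient cells was a small share of the WT level. Over members, the mean of the 2 UTX-deficient libraries had a median of 5.95 normalized reads, against a WT median of 118, and the median remainder was 4.80% of WT (quartiles 3.80% and 6.02%). These 2 libraries differed, with means of 2.71 and 11.2 normalized reads per member. The quartiles run over sites and do not show this spread between libraries. At the other sites the remainder had a median of 5.86%, with wider quartiles of 3.87% and 8.46%. A remainder over 10% was seen at 17 of 480 members (3.54%, exact 95% interval 2.08 to 5.61), against 994 of 6238 other sites (15.9%, 15.0 to 16.9), where few reads make the ratio less precise. The median log2 fold in the authors' deposited table was -4.22 for members, with quartiles of -4.61 and -3.84, and -3.46 for the other sites. Sites just under the threshold, at a WT concentration of 6 to 6.5, stood at a median of -4.26 by the fold of the authors' deposited table and kept a median remainder of 5.05%, while sites under 4.5 had -2.75 and 6.63%. Over the whole table, fold and remainder thus moved with the WT level, the value that chose the members. Among members the median fold stayed near that of the class just under the threshold. It was -4.24 at 6.5 to 7, -4.19 at 7 to 7.5 and -4.23 at 7.5 or more. The median remainder in these 3 classes was 4.91%, 4.81% and 4.45%. The threshold marked no step in the fold. The median difference of the 2 concentrations in the authors' deposited table was larger in size, -4.97 for members, so the deposited fold is not that plain difference. From recovered reads the median log2 difference was -5.29 with 3 against 3 libraries and a pseudocount of 1 normalized read, and -4.47 without the near-empty library. With each library scaled to the same total over the sites it was -2.48, and -0.52 when the near-empty library was also left out, a choice made after the data had been seen. Of the 6739 sites, 6718 were higher in WT, so scaling to the same total over the sites takes out a decrease that they share. These last values thus cannot show how large the decrease was, and the other values rest on scaling by depth.

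**Figure D2:**
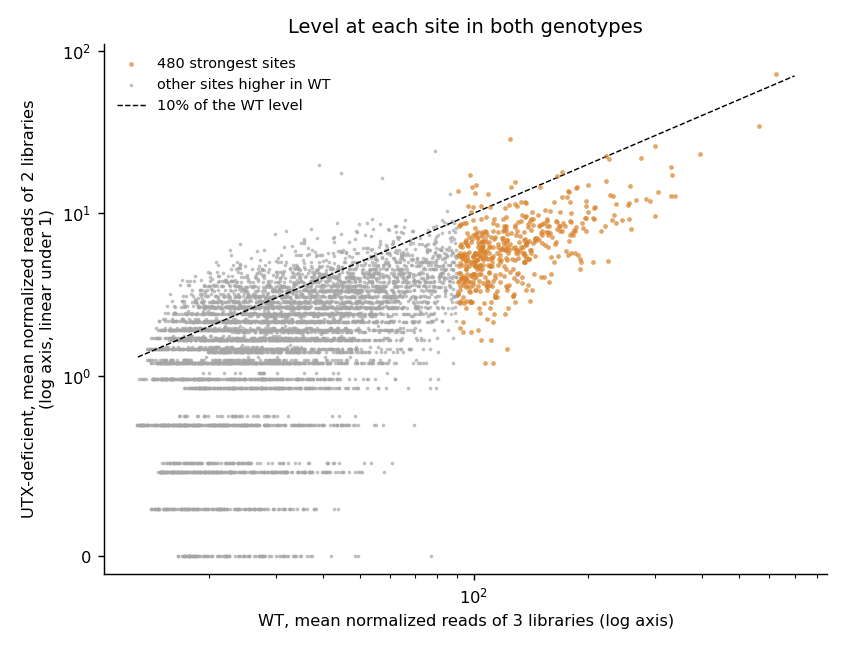
Each point is a site higher in WT: the mean of the 2 UTX-deficient libraries with reads (vertical axis, logarithmic and linear under 1) against the mean of the 3 WT libraries (horizontal, logarithmic), both in normalized reads, with the 480 strongest sites in orange. Of these, 17 lie above the dashed line at 10% of the WT level.

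The strongest and the sixth strongest site lay at the T cell receptor loci. The strongest site of the table, chr6:41554431-41554831 (mm10), was assigned to Prss2, a pancreatic trypsin gene that lies inside the beta chain locus and 29552 bp from the site. It held 90, 104 and 0 reads in UTX-deficient libraries, against 753, 646 and 465 in WT libraries. By the annotation its middle is 6450 bp past the end of Trbc2, a beta constant segment, and 3062 bp short of the variable segment Trbv31. The stretch between these segments is known to hold the beta chain enhancer, although the annotation used here lists no enhancers and an overlap was not tested. A second member assigned to Prss2, chr6:41532650-41533050, lay 5369 bp short of Trbc1 and held 23, 19 and 0 reads in UTX-deficient libraries, against 126, 114 and 64 in WT libraries.

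At the alpha chain locus, too, 1 member lay past the constant segment, while the second lay inside it. The sixth strongest site, chr14:54227455-54227855, was assigned to Dad1, a gene of protein N-glycosylation, and its middle lies 3457 bp past the end of Trac, the alpha constant segment. It held 19, 31 and 0 reads in UTX-deficient libraries, against 391, 341 and 251 in WT libraries. The alpha chain enhancer is known to lie between Trac and Dad1. A second member at chr14:54222319-54222719 has its middle within Trac, with 10, 19 and 0 reads in UTX-deficient libraries, against 193, 130 and 72 in WT libraries. The log2 folds of these 4 sites in the authors' deposited table were -3.06 and -2.73 in the beta locus and -3.92 and -3.34 in the alpha locus. The median over all members was -4.22. Both groups carry the NY8.3 T cell receptor transgene, and whether reads at these 4 sites also stem from its copies was not tested. Their levels and ranks are thus uncertain. The segments were looked up after the values had been seen, because the assigned genes are not T cell genes.

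The second strongest site lay near a microRNA cluster. It was assigned to Mir23a at chr8:84198397-84198797 and held 27, 59 and 0 reads in UTX-deficient libraries, against 647, 623 and 400 in WT libraries. Its middle lies 9930 bp before the first mature microRNA of the miR-23a, miR-27a and miR-24-2 cluster on the plus strand, and 19652 bp from miR-181c on the minus strand. A second member, chr8:84203420-84203820, lies between the first and the cluster and held 6, 8 and 0 reads in UTX-deficient libraries, against 104, 100 and 70 in WT libraries. In CD8 T cells miR-23a is known to restrain cytotoxic function, and microRNAs of the miR-181 family set the sensitivity of the T cell receptor. Recovered WT reads at the strongest Prss2 and Mir23a sites had 2 and 3 whole-number solutions, and the one given is the single solution whose spread between libraries lies within that of the other members.

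The other microRNA members were weaker. At Mir142, a microRNA gene of blood cells, the site lay 7330 bp from the hairpin and held 8, 12 and 0 reads in UTX-deficient libraries, against 192, 177 and 101 in WT libraries. At Mir132 the site covered the mature miR-132 sequences and lay within 300 bp of miR-212, with 2, 8 and 0 reads in UTX-deficient libraries, against 113, 122 and 73 in WT libraries. At Mir150, which rises as lymphocytes mature, the site lay 235 bp from the hairpin and held 4, 8 and 0 reads in UTX-deficient libraries, against 116, 99 and 64 in WT libraries. Mir22hg, the host gene of miR-22, carried a member 99 bp before its start, and Mir7023 one 2589 bp away. MicroRNA genes were assigned to 6 of 476 matched members (1.26%, exact 95% interval 0.464 to 2.72), against 57 of 6180 other sites (0.922%), so the class as a whole was about as frequent.

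The third, the fourth and the fifth strongest sites lay at Cic, Sf1 and Rnf5. Cic, which encodes the repressor capicua, carried the third strongest site, in the gene and 389 bp past its start, with 16, 41 and 0 reads in UTX-deficient libraries, against 508, 392 and 282 in WT libraries. Sf1, whose promoter is shown above, held 4, 25 and 0 reads in UTX-deficient libraries, against 454, 331 and 236 in WT libraries. Rnf5, a ubiquitin ligase gene, held 7, 33 and 0 reads in UTX-deficient libraries, against 439, 308 and 252 in WT libraries. These 3 sites, unlike those at the receptor loci, lay in or within 300 bp of the assigned gene. Further sites were at Mob3a, Fbrs, Gm51400, Csnk1g2, Izumo4, Hdgfl2, Rab8a, a GTPase of vesicle traffic, Tpst2 and Cactin. Mob3a and Izumo4 are neighbours on chromosome 10, and the Izumo4 site lies 364 bp before the start of Mob3a.

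Transcription factor and receptor genes were also among these 20. Tnfrsf14, which encodes the receptor HVEM, carried a member 8184 bp away with 16, 47 and 0 reads in UTX-deficient libraries, against 373, 313 and 211 in WT libraries. At Sp1, which encodes a factor that binds GC boxes, the site 355 bp before the start held 5, 23 and 0 reads in UTX-deficient libraries, against 373, 234 and 201 in WT libraries. At Relb, which encodes an NF-kB subunit, a site in the gene held 7, 16 and 0 reads in UTX-deficient libraries, against 333, 252 and 183 in WT libraries. The clock repressor gene Per1 and Rfx1, which encodes a winged-helix factor, stood at -3.46 and -3.83 in log2 fold in the authors' deposited table. Across the 20, log2 folds in the authors' deposited table ran between -4.63 at Hdgfl2 and -3.06 at Prss2.

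The list of exhaustion and receptor-induced genes had the largest share of genes with a member. Of its 38 genes, 24 had a site higher in WT and 13 of these (54.2%) had a member, against 8.60% of all genes with such a site; counted by site, 16 of 67 were members, against 7.14% of all sites higher in WT. They comprise AP-1 subunit genes (Jund, Fos with 2 members, Fosb), nuclear receptor and zinc finger genes (Nr4a1 and Egr1 with 2 each, Nr4a3), mRNA decay genes (Zfp36, Zfp36l1, Zfp36l2, Btg1, Btg2), Dusp1 and the activation marker gene Cd69. No inhibitory receptor gene of the list, such as Pdcd1, Lag3 or Havcr2, had a member. The list was chosen with results of these data known, so its share is a description.

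At Jund, which had the highest WT level of the list, the site held 20, 18 and 0 reads in UTX-deficient libraries, against 226, 189 and 120 in WT libraries. The stronger Fos member lay 18500 bp before the gene and held 13, 31 and 0 reads in UTX-deficient libraries, against 235, 164 and 119 in WT libraries. Neither pair of ranges overlapped, and 7.61% of the WT level was left at Jund and 10.4% at Fos. Nr4a1 carried 1 member at its start, in the promoter shown above, with 2, 9 and 0 reads in UTX-deficient libraries, against 126, 111 and 56 in WT libraries. Its other member, 8151 bp before that start, was stronger, with 6, 10 and 0 reads in UTX-deficient libraries, against 207, 157 and 108 in WT libraries. Zfp36l1 kept the least signal of the list: 1, 2 and 0 reads in UTX-deficient libraries, against 131, 112 and 76 in WT libraries, and the authors' deposited table gives -5.89 as its log2 fold. Btg1, which had the lowest WT level of all members, kept 15.1% of it, with 17, 20 and 0 reads in UTX-deficient libraries, against 102, 89 and 75 in WT libraries. Genes of 1 list thus ran between the second largest and the third smallest fold of all members.

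**Figure D3:**
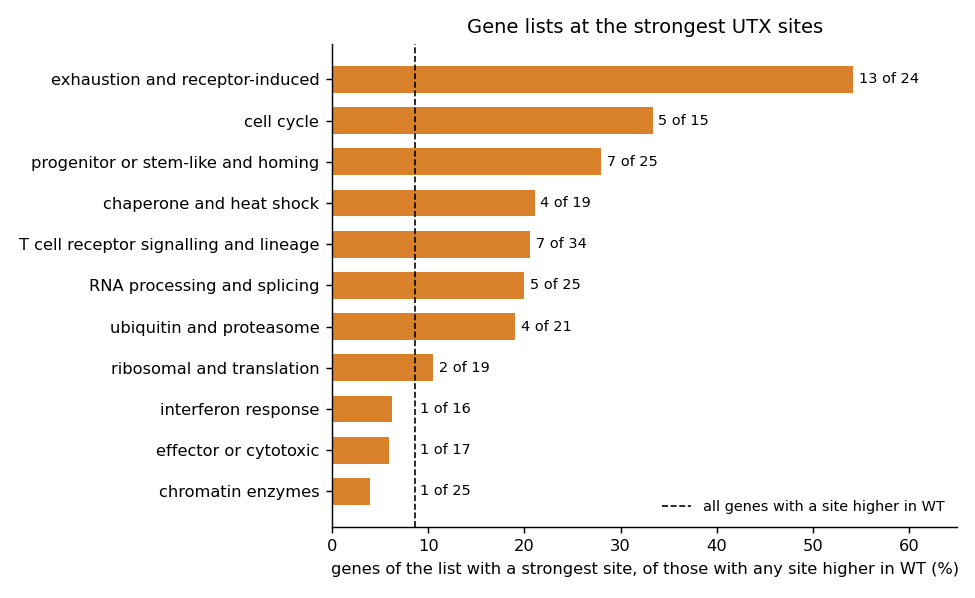
Share of genes with a member among the genes of each list with any site higher in WT (bars, with counts), for the lists with at least 15 such genes; the dashed line at 8.60% is the share over all genes with a site higher in WT. Exhaustion and receptor-induced genes reach 13 of 24, and chromatin enzymes, a list limited to chosen H3K27, H3K4 and acetylation genes, 1 of 25. The bars count genes, whatever their number of sites.

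The progenitor and homing list had members at 7 of its 25 genes with a site (28%), against 8.60% of all genes with a site higher in WT. By site, 9 of 78 were members, against 7.14% of all sites higher in WT. Klf13, which encodes a GC-box factor, led the list with a site 163 bp before its start. That site held 6, 21 and 0 reads in UTX-deficient libraries, against 287, 243 and 176 in WT libraries. At Tcf7, which encodes TCF-1, the member lay 30724 bp from the gene and held 13, 22 and 0 reads in UTX-deficient libraries, against 216, 200 and 114 in WT libraries. Klf2 held 14, 17 and 0 reads at its start in UTX-deficient libraries, against 177, 136 and 98 in WT libraries. At these 3 sites the second UTX-deficient library held more reads than the deepest, and neither reached a WT library. Tle4, a corepressor gene of the TCF family, had members 84 bp before its start and 97396 bp before it. Ccr7, a homing receptor gene, had 2 members 8279 and 16074 bp from the gene. Lef1 and Bach2 kept 14.5% and 13.2% of the WT level, against a median of 4.80% over members. The median log2 fold of the list's members in the authors' deposited table was -3.56, against -4.22 for all members.

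Of the genes for T cell receptor signalling and lineage, 34 had a site and 7 of these (20.6%) a member, against 8.60% of all genes with a site higher in WT. By site, 9 of 72 were members, against 7.14% of all sites higher in WT. Nfatc3, a calcium-regulated factor gene, had 2 members, and the one 276 bp before its start held 9, 14 and 0 reads in UTX-deficient libraries, against 191, 177 and 121 in WT libraries. Ikzf1, which encodes the lymphoid factor Ikaros, held 13, 18 and 0 reads at a site 36192 bp past its start in UTX-deficient libraries, against 203, 165 and 117 in WT libraries. Runx3, the CD8 lineage factor gene, held 4, 7 and 0 reads 181 bp before its start in UTX-deficient libraries, against 172, 137 and 86 in WT libraries. These were followed by Ptpn22 (2 members), a phosphatase gene that restrains receptor signalling, Malt1, Cd3d and Sh2d2a. The list's folds in the authors' deposited table ran between -4.86 at Runx3 and -3.32 at Ptpn22.

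Among general cell functions, cell cycle genes had the largest share, with members at 5 of 15 genes with a site (33.3%). Of these 5, Mxd4 and Mnt (2 members each) encode repressors that oppose Myc, Cdkn2d an inhibitor of CDK4 and CDK6, Ccne1 cyclin E1 and Cdk4 the kinase. The stronger Mxd4 member held 5, 15 and 0 reads in UTX-deficient libraries, against 163, 144 and 127 in WT libraries. Cdk4 held 3, 6 and 0 reads in UTX-deficient libraries, against 130, 117 and 76 in WT libraries. Chaperone genes had members at 4 of 19 (21.1%), namely Hspa8, Fkbp5, Stip1 and Dnaja1. RNA processing genes had them at 5 of 25 (20%), with Hnrnpl, Hnrnpa2b1, Ddx5, Neat1 and U2af2, and ubiquitin and proteasome genes at 4 of 21 (19.0%), among them Ube2d3, Cul3 and Usp36. By site, members were 7 of 26 for cell cycle, 4 of 22 for chaperone, 5 of 29 for RNA processing and 4 of 24 for ubiquitin and proteasome genes. Over all sites higher in WT the share was 7.14%.

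Other lists stood near or under the 8.60% of all genes. Ribosomal and translation genes had members at 2 of 19 (10.5%), both initiation factor genes, Eif5a and Eif1. Interferon response genes had 1 of 16, Stat3, with 7, 20 and 0 reads in UTX-deficient libraries, against 263, 182 and 150 in WT libraries. Effector or cytotoxic genes had 1 of 17, Fasl, at a site 13907 bp from the gene. The chromatin enzyme list, limited to chosen H3K27, H3K4 and acetylation genes, had 1 of 25, Kdm6b, the other H3K27 demethylase gene of T cells. Its site held 1, 8 and 0 reads in UTX-deficient libraries, against 158, 118 and 70 in WT libraries. Chromatin enzyme genes that this list does not hold also had members, among them Kat6b, Carm1, Hdac4, Kdm3a, Kdm1b, Kdm4b and Sirt2. The list of 35 developmental regulators, typical Polycomb targets, had no site at any gene. Sites higher in WT with an FDR of 0.05 or more are absent from the authors' deposited table and could not be seen.

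Members differed from each other in how much signal was left and in how the libraries agreed. The largest folds in the authors' deposited table were at Skil (-5.94), an inhibitor of SMAD signalling, Zfp36l1, Fkbp5 (-5.84), Gm15559 (-5.73) and Fmnl1 (-5.63). At Skil the reads were 1, 2 and 0 in UTX-deficient libraries, against 143, 120 and 74 in WT libraries. The smallest folds in the authors' deposited table were at the 2 members of Pisd-ps3, a pseudogene (-2.07 and -2.45), then at Btg1, at the second Prss2 member and at Lef1, these last between -2.74 and -2.72. The stronger Pisd-ps3 site held 32, 44 and 0 reads in UTX-deficient libraries, against 141, 106 and 117 in WT libraries. It lies on an unplaced contig, where reads may also stem from copies elsewhere in the genome, so its level is uncertain. A total of 3 members lie off the assembled chromosomes.

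None of the 5 members with the smallest FDR was among the 20 strongest sites. In the authors' deposited table the lowest FDRs belonged to Tha1 (2.12e-33, rank 45 by WT level), the deacetylase gene Sirt2 (6.1e-32, rank 28) and Ssc4d (1.5e-31, rank 66), followed by Hspa8 (8.02e-30, rank 56) and Prex1 (1.56e-28, rank 118). Over members ranked by WT level, the median FDR in the authors' deposited table was 2.66e-08 for ranks 1 to 60 and 1.78e-18 for ranks 241 to 300, while the 2 blocks differed little in median fold (-4.22 and -4.46). The coefficient of variation between WT libraries had quartiles of 7.73% and 16.3% over members, against 10.9% and 24.7% over the other sites, which hold fewer reads. It was lowest at Sin3a, a corepressor gene (0.947%), Samd4b (1.03%) and Tbc1d17 (1.06%), and highest at Oplah (32.7%), Limd2 (32.5%) and Stk4 (30.4%). The last members inside the threshold were Impact, Stk4 and Btg1, of which Impact stood at a WT concentration of 6.502 in the authors' deposited table, and the first sites outside it were Bcl10, Nfe2l2 and Plag1, with 6.498, 6.495 and 6.491.

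Several genes had more than 1 member. Gtf2i, a general transcription factor gene, had 3 within 16153 bp, and 29 further genes had 2. Pairs within 5 kb of each other included those of Ing1, an H3K4me3 reader gene, Sin3a, Mef2d, Per1, Nfatc3, Egr1, Mnt, Gm27162, 4933433H22Rik, Kcnc1 and Pisd-ps3, and the widest were at Tle4 (97312 bp) and Rasa3 (86176 bp). Further pairs, beside those at Prss2, Dad1, Mir23a, Fos, Nr4a1, Mxd4, Ptpn22 and Ccr7, were at Cic, Rab8a, Mfhas1, Prex1, Tmsb10, Ski and 5031425E22Rik. Members lay closer to another site of the table than other sites did, with a median of 19349 bp against 32480 bp. This distance also moved with the WT level, with medians of 42670 bp for sites under a concentration of 4.5 in the authors' deposited table, 27770 bp at 5 to 5.5 and 23026 bp at 6 to 6.5. Among members it was 19478 bp at 6.5 to 7, 18390 bp at 7 to 7.5 and 19924 bp above. Another site lay within 5 kb of 67 of 479 members (14.0%, exact 95% interval 11.0 to 17.4), against 573 of 6237 other sites (9.19%, 8.48 to 9.93). The median number of protein-coding genes within 100 kb was 5 for members and 4 for other sites, and it was 8 for the 58 members with a concentration of 7.5 or more in the authors' deposited table.

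Members were spread unevenly over chromosomes. Chromosome 7 had the highest share of the assembled chromosomes, with 55 members among its 538 sites higher in WT (10.2%), followed by chromosome 8 with 36 of 373 (9.65%). Chromosome 16 had 2 of 182 and chromosome X 2 of 103 (1.94%), against 7.14% over all sites higher in WT.

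Members lay near transcription starts about as often as other sites, but more of them lay before the start. Starts came from the RefSeq promoters, which hold one for the assigned gene of 378 members. Of these, 237 lay within 1 kb of that start (62.7%, exact 95% interval 57.6 to 67.6), against 3047 of 5004 other sites (60.9%, 59.5 to 62.2). To the nearest start of any gene, 262 of 465 members (56.3%) and 3287 of 6076 other sites (54.1%) lay within 1 kb. Within this window 206 of the 262 members had their middle before the start (78.6%, 73.2 to 83.4), against 2085 of 3287 other sites (63.4%, 61.8 to 65.1). The median position was 141 bp before the start for members and 49 bp before it for other sites. Between 100 and 500 bp before the start lay 150 of 262 members (57.3%), against 1098 of 3287 other sites (33.4%), and within 100 bp of it lay 70 members (26.7%), against 1538 other sites (46.8%). Sites that share a promoter or gene are not independent, so the intervals are too narrow, and no test was run.

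The share before the start moved with the WT level over the whole table. By WT concentration in the authors' deposited table it was 54.4% under 4.5, 64.6% between 4.5 and 5, 67.8% between 5 and 5.5, 68.3% between 5.5 and 6 and 73.6% between 6 and 6.5. Among members it was 78.7% between 6.5 and 7, 80.0% between 7 and 7.5 and 76.2% at 7.5 or more. The median position was 15 bp before the start in the lowest class and 168 bp before it between 7 and 7.5. Thus the threshold at 6.5 marks no step in position. Members overlapped the assigned gene less often, 312 of 473 (66.0%, exact 95% interval 61.5 to 70.2), against 4765 of 6175 other sites (77.2%, 76.1 to 78.2).

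**Figure D4:**
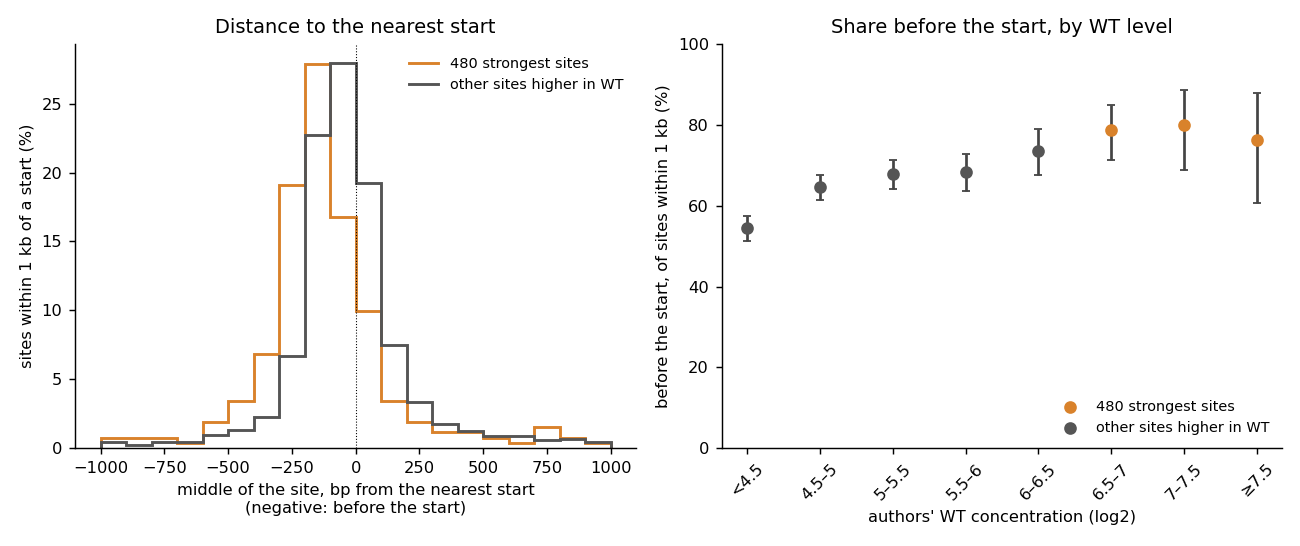
Left, share of sites (vertical axis, %) by distance of the middle of the site from the nearest start in bins of 100 bp (horizontal axis, negative before the start), among sites within 1 kb of a start, for the 480 strongest sites and the other sites higher in WT; the medians are 141 and 49 bp before the start. Right, share lying before the start by the authors' log2 WT concentration, with exact 95% intervals, between 54.4% in the lowest class and 80.0% in the class from 7 to 7.5.

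In base composition the promoters at members resembled those at other sites. Over the promoter window of 250 bases before to 50 after the start, and over genes with a site within 1 kb, the median GC content was 64.7% at 235 genes of members and 63.7% at 2953 genes of other sites, against 52.7% over all 32851 promoters of the table. The median number of CpG dinucleotides was 25 at genes of members, 24 at genes of other sites and 7 over all promoters. A GC box, GGGCGG, was in 198 of 235 promoters of members (84.3%, exact 95% interval 79.0 to 88.7), 78.1% of those of other sites (76.6 to 79.6) and 35.7% of all promoters. CCAAT was in 51.1%, 45.1% and 37.4% of these sets, and TGACG in 42.1%, 39.7% and 20.8%.

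The ETS motif went the other way. CCGGAAG was in 23 of 235 promoters of members (9.79%, exact 95% interval 6.31 to 14.3), 575 of 2953 of other sites (19.5%, 18.1 to 20.9) and 8.86% of all promoters, so members stood near all promoters and apart from the other sites. None of the 5 promoters printed above holds it. The full TGACGTCA (2.13% of members, 4.17% of other sites), the NRF1 motif (2.98% and 4.94%) and the YY1 motif (3.40% and 5.11%) had intervals that overlapped between members and other sites. TGTGGT, the RUNX letters, was in 23 of 235 promoters of members, 355 of 2953 of other sites and 16.8% of all promoters, and CTTTGA, the TCF letters, in 9.79%, 10.8% and 16.0%. CACGTG was in 14.0% of promoters of members, 10.8% of those of other sites and 7.15% of all promoters. GGGCGG and its reverse complement can overlap in CG-rich runs and each promoter was counted once. A match is a description of these letters, and the members far from starts, such as those at the receptor loci, have no sequence here.

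**Figure D5:**
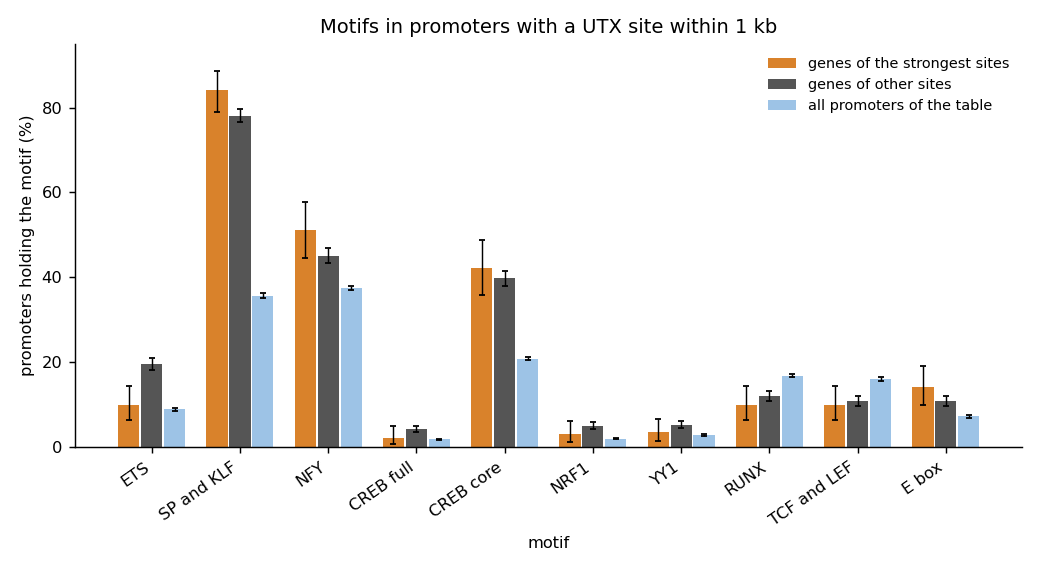
Share of promoters (vertical axis, %) holding each of the 10 motifs on either strand, with exact 95% intervals, for genes of the strongest sites and genes of other sites, both with a site within 1 kb of the start, and for all promoters of the RefSeq table. The ETS bar is lower for the strongest sites (9.79%) than for other sites (19.5%), and the SP and KLF bar is high for both (84.3% and 78.1%).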

How the data were processed

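UTX CUT&Tag was measured in 3 UTX-deficient and 3 WT samples, grouped by genotype as labelled. The table used is the authors' own comparison of the groups: the concentrations and the fold are log2 values, and the p-value and FDR are those the authors deposited. Build mm10 is named in the submitters' processing notes, beside DiffBind, MACS2, Bowtie2, Picard, SAMtools, cutadapt and FastQC. For none of these tools is a role or version given, and how peaks were pooled over samples was not given in the sources used here. Each site of the table is 401 bp wide. From the deposited p-value and FDR, the number of tests behind the table comes to 8293.

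With Python 3.11.15, numpy 2.4.6, pandas 2.3.3 and scipy 1.17.1, whole reads per library were recovered from the group means, given to 9 decimals, by finding what 1 read of each library is worth. For the third UTX-deficient library this worth was not found from the sums. It was taken from the depth left by the other libraries, which the search required to be small. Exactly 1 solution was found at 478 members in WT and at 480 in UTX-deficient cells, while sums shifted at random were solved in 3.96% and 0% of cases. The recovery was tested on simulated data of 6717 sites in 2 tables, with 6717 solved in each and 0 wrong. A library near empty in the data was also near empty in the simulations, so they do not test whether one could be inferred where there is none. Without molecular identifiers, reads are not independent molecules, and intervals on shares cover numbers of sites or genes alone.

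Genes are those the authors assigned; 476 of 480 members were found in the GRCm38.p6 annotation, which is the assembly behind mm10. Starts, promoters and microRNAs came from RefSeq tables of that build, with distances taken from the middle of a site. Shares have exact (Clopper-Pearson) 95% intervals. No test was run, because the rule used the WT level of the same contrast and position and sequence were described with sites that are not independent. The members, the 17 gene lists and the 10 motifs were chosen with earlier results of these data known. Named sites are the 20 with the highest WT level, the 5 with the largest and the 5 with the smallest fold, the 5 with the smallest FDR, the 3 on either side of the threshold, up to 4 per list, genes with more than 1 member, the extremes of WT spread and the 5 with the most UTX-deficient reads; names beyond these complete a list or are said to be chosen after the values were seen, and a few sites are not reported here.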

Additional observations from a re-analysis of the deposited data

How the results depend on the processing

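A WT concentration of 6 or more gave 945 members and of 7 or more 189, and the WT level from 2 of the 3 WT libraries gave between 424 and 527. The median log2 difference was -2.48 with each library scaled to the same total over the sites, and -0.52 when the near-empty library was also left out, an alternative added after the data were seen. Since 6718 of the 6739 sites were higher in WT, this scaling takes out a decrease that they share. Leaving out 1 library at a time gave a median log2 difference between -6.13 and -4.47. The share within a window of the start was 77.8% with 10 kb and 56.3% with the nearest start of any gene, and the share before the start was 84.0% with the start of the assigned gene; the cause was not tested. Of 47 alternatives, 36 left a value within its spread or a count near the first one, 11 moved it and 0 turned a direction. Counts and shares have no direction to turn. The fold and the log2 difference are of sites chosen by the WT level of the same contrast, so a kept direction says little. No paired analysis was possible because the table holds 1 value per genotype and the recovered libraries carry no sample number. Depth limits the UTX-deficient level, where a median member held 4 reads in the deepest library.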

Other observations

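Members were also counted in 4 families that were put together after the values had been seen, so their shares are descriptions without a test. Over all genes with a site higher in WT 8.60% had a member, and 7.14% of all such sites were members. By site, members were 7 of 26 in the SP and KLF family, 8 of 31 in the NF-kB pathway, 5 of 31 in the TGF-beta pathway and 4 of 12 at clock genes. Klf2, Klf13 and Malt1 also belong to lists described above. Of the 26 genes of the SP and KLF family, whose factors bind GC boxes, 13 had a site higher in WT and 7 of these had a member: Sp1, Sp2, Sp4, Klf2, Klf10, Klf13 and Klf16. At Sp2 the site 72 bp before the start held 3, 10 and 0 reads in UTX-deficient libraries, against 135, 82 and 81 in WT libraries. Of the 28 genes of the NF-kB pathway, 24 had such a site and 8 a member: Relb, Tnfaip3, Birc3, Traf1, Malt1, Cyld, Map3k14 and Ripk2. Among these 8 the inhibitor gene Tnfaip3 kept the largest remainder, 10.1% of the WT level, with 17, 39 and 0 reads in UTX-deficient libraries, against 294, 226 and 152 in WT libraries. The subunit genes Nfkb1, Nfkb2, Rel and Rela had weaker sites.

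Of the 16 genes of the TGF-beta pathway, 13 had a site higher in WT and 4 a member, and these encode inhibitors of SMAD signalling: Ski (2 members), Skil, Smad7 and Trim33. Weaker sites alone were at the receptor genes Tgfbr1 and Tgfbr2, at Tgfb1, Smad2, Smad3 and Smad5, and at Smurf1, Tgif1 and Tgif2. These last also encode inhibitors of the pathway, so not every inhibitor gene with a site had a member. Of the 17 clock genes, 11 had such a site and 3 a member, Per1 (2 members), Dbp and Tef. The Tef site lay 141 bp before the start and held 3, 5 and 0 reads in UTX-deficient libraries, against 166, 115 and 98 in WT libraries. The Dbp site lay 275 bp before the start and held 3, 10 and 0 reads in UTX-deficient libraries, against 135, 112 and 86 in WT libraries.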
